A study of Mus musculus with 24 samples.

Results

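The hippocampus and the cerebral cortex of young wild-type (WT) mice were compared on 6 of the 24 oligonucleotide arrays of the series, namely the 3 arrays titled as young WT hippocampus and the 3 titled as young WT cortex. The mice were C57BL/6J males aged 100 days, with no knocked-out gene and no treatment named in the labels, and every group of the series was of this strain and sex. The other arrays, used here only to see whether the region difference recurred, came from WT mice aged 655 days and from ApoD-KO mice, which lack apolipoprotein D, at both ages, again with 3 arrays for each region. Each array received a pool of RNA from 2 to 3 mice, and p-values reflect the spread between such pools. Whether both regions were taken from the same animals, and which cortical areas were sampled, is not stated in the labels.

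The hippocampus is an older type of cortex with few layers, built around the pyramidal cells of the cornu ammonis fields and the granule cells of the dentate gyrus, and it is best known for its part in memory and spatial navigation. The neocortex has more layers, each with its own classes of projection neurons, and it serves sensation, movement and association. The regions share most of their cell classes but differ in their excitatory neurons, which express distinct transcription factors, receptors and adhesion molecules, and in how much white matter, choroid plexus and other neighbouring tissue a dissection takes along. In RNA from whole tissue, fewer cells of a type and less RNA per cell cannot be told apart.

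The deposited values are log2 signals of 23879 Ensembl gene IDs. No gene names accompany these IDs in the files, and the reference table at hand lists 0 Ensembl IDs, so 0 IDs could be named and no sequence could be tied to one. The region labels could therefore not be checked against the known marker genes of the hippocampal fields or of the cortical layers, and 0 of the 42 gene lists drawn up for this comparison could be counted. Results are given by ID, with 2 IDs in each direction, and the labels were checked instead by IDs chosen on other arrays. The median signal of the 6 arrays lay between 7.37 and 7.42 log2, and the arrays deviated from their group means by 0.0706 to 0.106 log2 (root mean square). Over the tested IDs, arrays of the same region had correlations of 0.993 to 0.997, and arrays of different regions 0.96 to 0.969.

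In young WT mice, 5595 of the 14327 tested IDs differed between hippocampus and cortex, which is 39.1% (limma, Benjamini-Hochberg adjusted p under 0.05). Of these, 2509 (17.5% of those tested) were higher in hippocampus and 3086 (21.5%) were higher in cortex. Most differences were small, with a median of 0.319 log2 among the calls higher in hippocampus and -0.329 among those higher in cortex. The median size over all tested IDs was 0.148 log2, against a median SE of 0.0746.

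At least 2-fold differences were found for 394 IDs, or 2.75% of those tested. They were split almost evenly, with 191 (1.33%) higher in hippocampus and 203 (1.42%) higher in cortex. Their median differences were 1.4 and -1.3 log2. At a size of at least 4-fold the counts were 38 higher in hippocampus and 27 higher in cortex. The called IDs nearest to the 2-fold limit had sizes of 1.00 log2 on both sides of it, so the limit cuts through a continuous range and marks no gap between classes of genes. In the plot of cortex against hippocampus means, the 2-fold IDs line both sides of a dense band of IDs with near-equal levels.

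**Figure D1:**
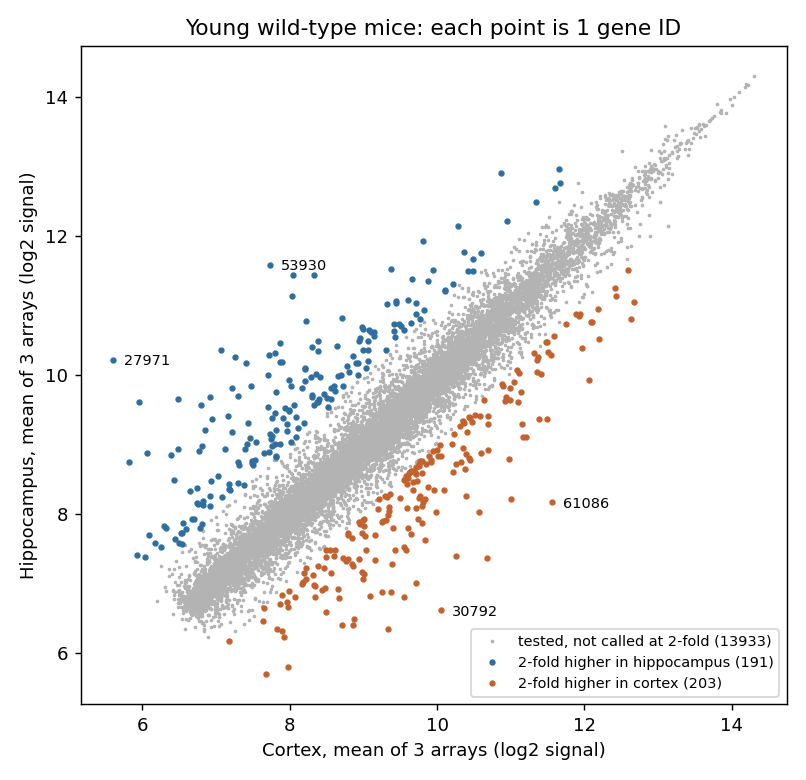
Mean log2 signal of the 3 young WT cortex arrays (x axis) against that of the 3 young WT hippocampus arrays (y axis), 1 point for each of the 14327 tested IDs, with the last 5 digits of the 4 named IDs printed beside their points. The 191 IDs at least 2-fold higher in hippocampus lie above the grey band and the 203 at least 2-fold higher in cortex lie below it.

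The 3 arrays of one region lay wholly above the 3 of the other for 7185 IDs, or 50.2% of those tested. All hippocampus arrays were higher for 3350 IDs (23.4%) and all cortex arrays for 3835 (26.8%). Each of the 394 IDs with a 2-fold difference was among them.

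Calls were more frequent among brighter IDs. When the tested IDs were sorted by mean level into 5 equal bins, 23.4% were called in the dimmest bin, at 6.63 to 7.54 log2, and 50.5% in the brightest, at 10.3 to 14.3. Differences of at least 2-fold did not follow this order. They made up 1.47% of the dimmest bin, 3.8% of the middle bin and 2.06% of the brightest. In the dimmest bin 27 of the 2-fold IDs were higher in hippocampus and 15 in cortex, while in the brightest 23 and 36 were. The array signal below which a transcript counts as background is unknown here. Of the 191 IDs higher in hippocampus, 22 had a cortex mean under 6.63 log2, the level used to filter dim IDs, and of the 203 higher in cortex, 13 had a hippocampus mean under it. The true fold of these IDs is the least certain.

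The largest difference in favour of hippocampus was that of ENSMUSG00000027971. Its signal was 10.30, 10.10 and 10.24 log2 on the 3 young WT hippocampus arrays and 5.43, 5.74 and 5.63 on the 3 cortex arrays. The regions were far apart on every array, and the cortex values lay under the level used to filter dim IDs. The difference was 4.61 log2 (SE 0.24, 24.4-fold, limma adjusted p = 8.4e-13).

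In the other groups the hippocampus level of ENSMUSG00000027971 hardly moved, with means of 10.26 in old WT, 10.24 in young KO and 10.28 in old KO. The cortex level varied more. It was 6.00 ± 0.63 in old WT, 6.06 ± 0.63 in young KO and 7.03 ± 0.05 in old KO (SD, n = 3 each), and the highest old WT and young KO arrays stood at 6.73 and 6.79. One array in each of those groups thus stood well above its other arrays, and all old KO cortex arrays lay above the other cortex arrays. The fold was 19.1 in old WT, 18.1 in young KO and 9.51 in old KO.

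ENSMUSG00000053930 was the second ID in this direction. Its signal was 11.61, 11.54 and 11.61 log2 on the young WT hippocampus arrays and 7.44, 8.02 and 7.73 on the cortex arrays. Cortex here lay well above the filter level and varied more between pools than hippocampus. The difference was 3.85 log2 (SE 0.096, 14.5-fold, limma adjusted p = 1.1e-17). Its fold was 9.52 in old WT, 12.5 in young KO and 9.45 in old KO.

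The largest difference in favour of cortex was that of ENSMUSG00000030792. Its signal was 10.12, 10.02 and 10.04 log2 on the young WT cortex arrays and 6.56, 6.83 and 6.44 on the hippocampus arrays. The cortex arrays lay close together, and the hippocampus mean was just under the filter level. The difference was -3.45 log2 (SE 0.12, 10.9-fold, limma adjusted p = 8.1e-16). Across the groups its cortex mean stayed between 10.01 and 10.06, and the fold was 9.77 in old WT, 8.8 in young KO and 11 in old KO.

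ENSMUSG00000061086 came next. Its signal was 11.48, 11.57 and 11.63 log2 on the young WT cortex arrays and 8.43, 7.98 and 8.08 on the hippocampus arrays. Both regions had a level clear of the dim range, and the groups were far apart on every array. The difference was -3.40 log2 (SE 0.089, 10.5-fold, limma adjusted p = 2.2e-17). Its fold was 6.55 in old WT, 9.4 in young KO and 6.36 in old KO.

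**Figure D2:**
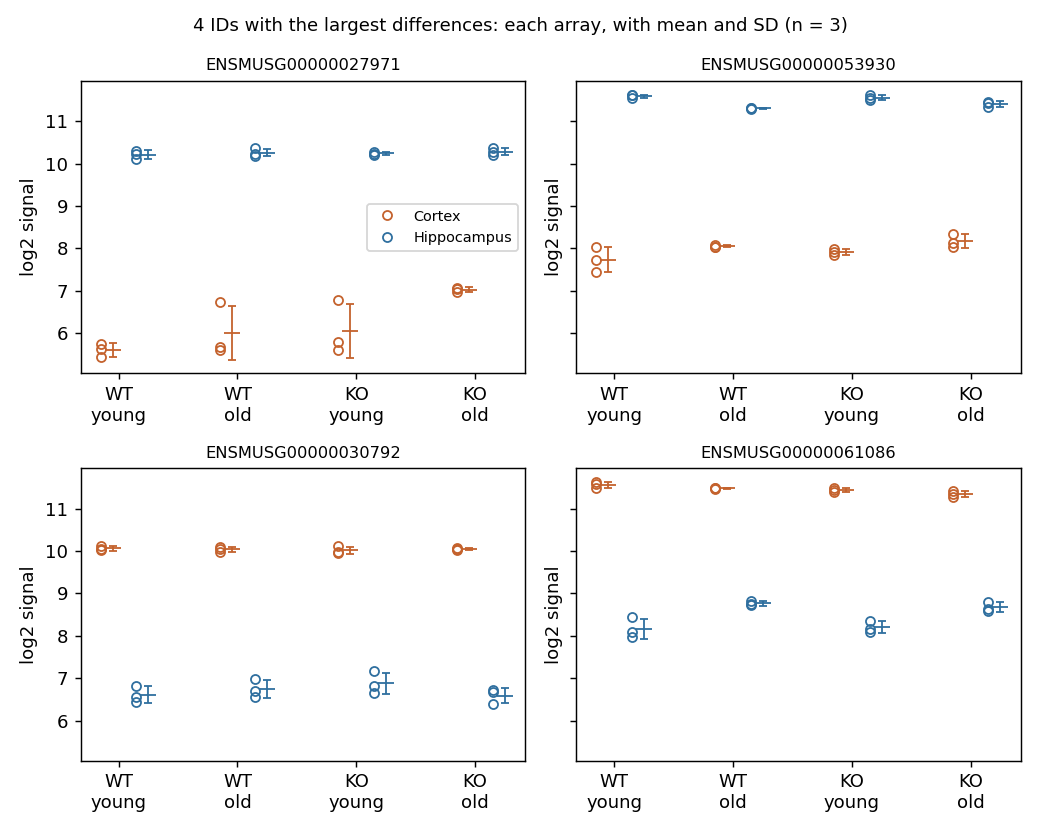
Log2 signal (y axis) of the 4 named IDs on each of the 24 arrays, grouped by genotype and age (x axis), with circles for single arrays and a bar for the mean and SD of the 3 arrays of a group. Hippocampus arrays lie above all cortex arrays for ENSMUSG00000027971 and ENSMUSG00000053930 and below them for ENSMUSG00000030792 and ENSMUSG00000061086 in each group.

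The same region contrast was then read on the arrays that took no part in it. These sets share no array with the young WT comparison, although the estimate of spread of each ID comes from all of them. Of the 191 IDs at least 2-fold higher in hippocampus, 191 were called in the same direction in old WT, 191 in young KO and 191 in old KO. The background in that direction was 14.2%, 15.7% and 13.2% of tested IDs. Of the 203 at least 2-fold higher in cortex, 190, 203 and 188 were called in the same direction, where the background was 14%, 21.3% and 16.4%. With each set of 6 arrays fitted alone, these counts were 191, 191 and 191 for hippocampus and 191, 200 and 192 for cortex.

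The size of the difference recurred less fully than its direction. A difference of at least 2-fold was found again in young KO for 178 of the 191 hippocampus IDs and 158 of the 203 cortex IDs. In old WT it was found for 152 and 134, and in old KO for 150 and 128. The background of such differences was 1.43% and 1.24% of tested IDs in young KO for hippocampus and cortex, 1.22% and 1.05% in old WT, and 1.18% and 0.949% in old KO. In all 4 sets a 2-fold difference was found for 257 of the 394 IDs, of which 142 were higher in hippocampus and 115 in cortex. Some loss is built in, because IDs picked for passing a limit in one set are on average larger there than in others.

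Over all calls, those of at least 2-fold included, recurrence was as follows. Of the 2509 calls higher in hippocampus, 1457 were called in the same direction in old WT, 1892 in young KO and 1428 in old KO. Of the 3086 calls higher in cortex, 1546, 2464 and 1785 were. The background in each direction is that given above for the same 3 sets, 14.2%, 15.7% and 13.2% of tested IDs for hippocampus and 14%, 21.3% and 16.4% for cortex. With each set of 6 arrays fitted alone, 2335 IDs were called higher in young WT hippocampus. Of these, 1421 (60.9%) were called in the same direction in old WT, 1446 (61.9%) in young KO and 1305 (55.9%) in old KO. Of 2898 called higher in cortex, 1518 (52.4%), 1804 (62.2%) and 1590 (54.9%) were. In the fit to all arrays the young KO shares were 75.4% and 79.8%. The background of the fits to single sets was not counted. Across the 14327 tested IDs, which are not independent of each other, the region difference of young WT had a correlation of 0.95 with that of young KO, 0.87 with that of old WT and 0.876 with that of old KO. The 4 sets share the array type and its probes, and no array.

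**Figure D3:**
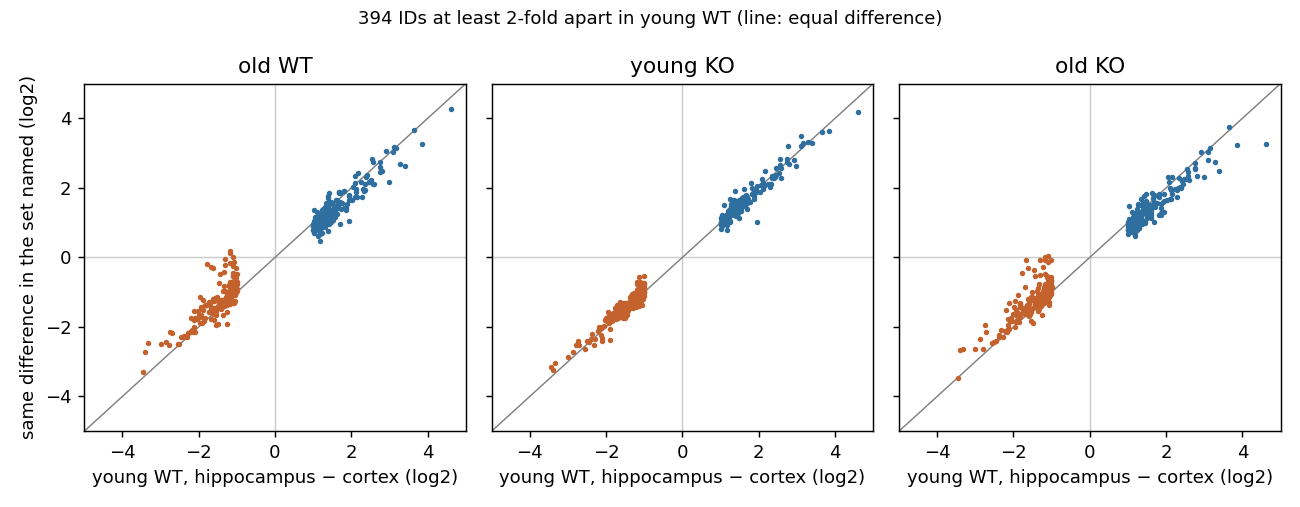
Hippocampus minus cortex difference (log2) of the 394 IDs at least 2-fold apart in young WT (x axis) against the same difference in old WT, young KO and old KO (y axes), with a line of equal difference. Points follow the line most closely in young KO, and in both sets of old mice a group of IDs higher in young cortex (orange) lies near 0 on the y axis.

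The region labels of the young WT arrays were checked with IDs chosen on KO arrays alone. In fits to the 6 young KO and the 6 old KO arrays, 150 IDs were called at least 2-fold higher in hippocampus in both, and 124 at least 2-fold higher in cortex in both. The score of an array was the mean level of the 150 minus that of the 124. It was 1.43, 1.53 and 1.57 log2 on the young WT hippocampus arrays and -1.91, -1.84 and -1.92 on the young WT cortex arrays. All 6 arrays thus fell on the side of their label, and no array lay between the regions. On old WT arrays, which also took no part in the choice, the score was 1.34, 1.42 and 1.37 in hippocampus and -1.76, -1.74 and -1.78 in cortex. The scores of old WT lay closer to 0 than those of young WT on every array of both regions. This check shows that the labels of WT and KO arrays were given in the same sense, and not which tissue each is.

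**Figure D4:**
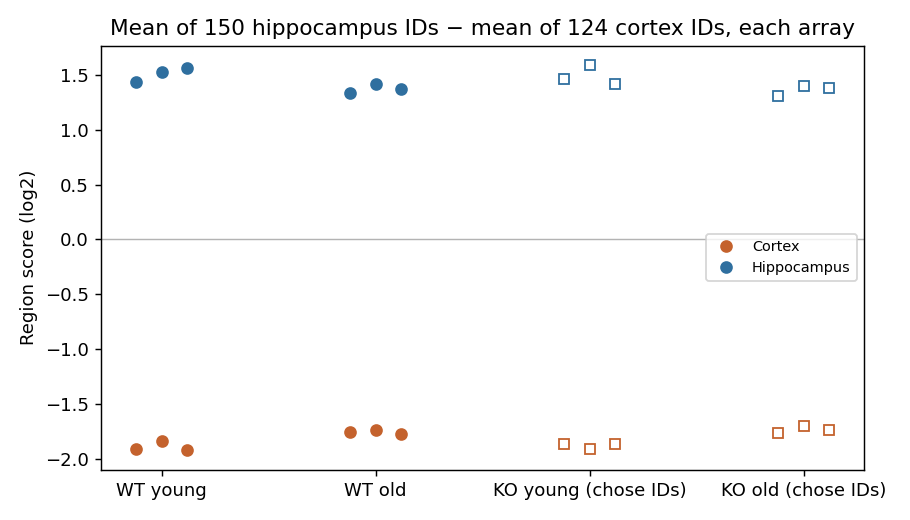
Region score in log2 (y axis) of each of the 24 arrays by genotype and age (x axis), with filled circles for WT arrays and open squares for the KO arrays on which the IDs were chosen. Hippocampus arrays lie above 0 and cortex arrays below it, and old arrays lie nearer to 0 than young WT arrays of their region.

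Whether the region difference depended on genotype was tested as an interaction in young mice. It called 0 of the 14327 IDs with limma, and 545 had an unadjusted p under 0.05. For the 4 named IDs the limma adjusted p of this interaction was 1, and the differences between KO and WT in the region effect were -0.43 (SE 0.33) for ENSMUSG00000027971, -0.21 (SE 0.14) for ENSMUSG00000053930, 0.31 (SE 0.16) for ENSMUSG00000030792 and 0.16 (SE 0.13) log2 for ENSMUSG00000061086.

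Whether it depended on age was tested as an interaction in WT, which called 292 IDs, or 2.04% of those tested. Among the 394 IDs with a 2-fold difference in young WT, 44 were called, and in 43 of these the difference was smaller in old mice. The test shares its young arrays with the choice of the 394, which favours a smaller value in old mice. The counts also rested on single arrays of both ages. Without young WT hippocampus replicates 2 and 3 the 44 became 9 and 17, and without young WT cortex replicate 1 it became 13. The 2-fold IDs were chosen anew in each of these fits and numbered 387, 391 and 386. The 292 ranged from 28 without hippocampus replicate 2 to 597 without cortex replicate 3. The 292 was also 58 without cortex replicate 1, 180 without cortex replicate 2, 171 without hippocampus replicate 1 and 103 without hippocampus replicate 3. Without old WT cortex replicates 1 to 3 the 292 became 69, 524 and 6 and the 44 became 14, 46 and 4. Without old WT hippocampus replicates 1 to 3 they became 72, 103 and 135, and 12, 16 and 25.

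The named IDs were picked on the same young WT arrays, which favours a smaller difference in old WT for them too. ENSMUSG00000061086 had a smaller difference in old WT, by 0.68 log2 (SE 0.13, limma adjusted p = 0.0146). This call was lost without old WT cortex replicate 3 (adjusted p = 0.059). Its hippocampus mean was 8.16 ± 0.24 in young and 8.76 ± 0.05 in old WT, and its cortex mean 11.56 ± 0.07 and 11.48 ± 0.02 (SD, n = 3 each). ENSMUSG00000053930 also had a smaller difference in old WT, by 0.60 log2, with an interaction of -0.60 (SE 0.14, limma adjusted p = 0.029). That call was lost without young WT cortex replicate 1 and without each of the 3 young WT hippocampus replicates, with adjusted p from 0.053 to 0.0721. It was not read without single old WT arrays. The interaction was -0.35 (SE 0.33, adjusted p = 0.598) for ENSMUSG00000027971 and 0.16 (SE 0.16, adjusted p = 0.623) for ENSMUSG00000030792.

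The KO arrays give the same comparison of ages without the young WT arrays whose region difference chose the IDs, though the filter on dim IDs used all arrays. The interaction of region and age in KO called 26 IDs, or 0.181% of those tested, and 4 of them were among the 394, each with a smaller difference in old mice. Without each KO array in turn the 26 ranged from 1 to 117. The 4 became 0 without old KO cortex replicate 1 and without old KO hippocampus replicates 1 and 3, and 13 and 9 without young KO hippocampus replicates 1 and 2. The median size of the region difference over the 394 was 1.34 log2 in young KO and 1.21 in old KO. It was smaller in old KO for 302 of the 394 (76.6%, and 74.1% to 80.5% without each KO array in turn), against 62.2% of all 14327 tested IDs, read in the direction of their young WT difference. For the hippocampus IDs the share was 153 of 191 and for the cortex IDs 149 of 203. In KO the interaction was 0.56 log2 for ENSMUSG00000061086 (SE 0.13, limma adjusted p = 0.0725) and -0.40 for ENSMUSG00000053930 (SE 0.14, adjusted p = 0.165), so neither passed the threshold there.

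A subset of the cortex IDs had a region difference under 0.5 log2 in old mice. Of the 203, 17 differed by less than 0.5 log2 between regions in old WT and 13 in old KO, and 11 were in both lists, which is 64.7% of the first and 84.6% of the second. In young KO, 0 of the 203 differed by less than 0.5 log2. This limit was chosen after the values had been seen, so the counts are a description. It is larger than the median difference of the young WT calls, 0.319 log2 for hippocampus and -0.329 for cortex. An ID under it can therefore still differ between regions. Over the 11 IDs, the median of the group means in WT hippocampus was 8.92 log2 in young and 10.02 in old mice, and in WT cortex it was 10.69 and 10.22. IDs chosen for a large difference in young and a small one in old mice must have moved with age in 1 region or the other, so the following counts describe in which region they moved and are no test. In hippocampus 0 of the 11 were lower in old mice in either genotype, with median changes of 0.81 log2 in WT and 0.73 in KO. The rise was called for 8 of the 11 in WT (limma, background 3.78% of tested IDs) and for 6 in KO (background 4.13%). The WT count rested on single hippocampus arrays, as it was 4, 1 and 2 without young replicates 1 to 3 and 0, 3 and 5 without old replicates 1 to 3. Without each array of the other groups the WT count ranged from 6 to 9. The KO count was 8, 5 and 4 without young KO hippocampus replicates 1 to 3. It was 3, 4 and 4 without old KO hippocampus replicates 1 to 3. In cortex 0 of the 11 were called in either genotype (limma, background 1.03% in WT and 1.67% in KO), with median changes of -0.35 log2 in WT and -0.01 in KO. Yet 11 of the 11 were lower in old than in young WT cortex, with changes from -0.70 to -0.14 log2. In KO cortex 7 of the 11 were lower in old mice, with changes from -0.95 to 0.50 log2.

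The ID of this subset with the largest difference in young WT was ENSMUSG00000064371, picked for that value. The WT medians over the 11 IDs given above are the group means of this same ID, so the 2 are not separate readings. Its signal was 10.72, 10.79 and 10.56 log2 on the young WT cortex arrays and 9.02, 8.90 and 8.83 on the young WT hippocampus arrays. In old WT it was 10.01, 10.10 and 10.54 in cortex and 10.47, 9.95 and 9.64 in hippocampus. The young regions did not overlap, and the old regions did. The young WT difference was -1.78 log2 (SE 0.37, 3.42-fold, limma adjusted p = 6.2e-04), and the old WT difference was -0.20 (SE 0.37, adjusted p = 0.765). The interaction of region and age was 1.58 log2 (SE 0.53, adjusted p = 0.115).

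These 11 IDs varied more between arrays than most. Their median SD was 0.163 log2 in young WT cortex, where the median over all tested IDs was 0.0891, and 0.101 in young WT hippocampus, where it was 0.0604. In young KO hippocampus it was 0.586. Replicate 1 of that group, which of the 24 arrays stood furthest from its group mean (0.161 log2, root mean square), had a median level of 10.26 over the 11 IDs, against 8.13 and 8.48 on the other 2 arrays. Over the 11 IDs the median difference between regions in young KO was -1.06 log2 with this array and -1.31 without it. Of the 394 IDs, 393 kept their direction and call in young KO without it. The interaction of ENSMUSG00000064371 in WT had an adjusted p of 0.0112 without it, since its spread enters the fit. What set the high level of this array over the 11 IDs was not tested. Of the 11 IDs, 8 have numbers within 24 of one another in the Ensembl series, and what they encode is not annotated in the files used here.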

How the data were processed

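The values used are the log2 signals that the authors deposited, 1 per Ensembl gene ID and array. The submitters' processing notes name MAS5 and RMA without saying what each did. Not given in the sources used here were the array model, the annotation and how probes were joined into IDs. The log2 scale was inferred from the range, 3.99 to 14.4. Array values carry no read depth, and the number of arrays limits the precision.

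With R 4.3.3 and limma 3.58.1, the 14327 IDs whose mean over 24 arrays exceeded the 40th percentile (6.63 log2) were tested and 9552 were not. A model of 8 group means was fitted to all 24 arrays (16 residual degrees of freedom) and moderated with eBayes. P-values were two-sided, with Benjamini-Hochberg adjustment over all tested IDs per comparison. Calls required an adjusted p under 0.05, with a limit of 1 log2 added for 2-fold calls. The test of the young WT region difference was run on simulated data, with independent noise for each ID and equal spread in all groups. The spread of the real groups was not equal, and the interactions were not simulated. The named IDs are the 2 with the largest difference in each direction among calls with no overlap between the arrays of the regions. The part of the rule that needs gene symbols was not used. The comparison, lists and tests were chosen with earlier results of these data known. The KO interaction was added after seeing the data.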

Additional observations from a re-analysis of the deposited data

Results flagged for a closer look

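The interaction of region and age differed from 0 in WT for 44 of the 394 IDs with a 2-fold region difference in young WT (limma), where 2.04% of all tested IDs were called, and in KO for 4 of them, where 0.181% were. Without 1 array at a time the 44 ranged from 4 to 65 and, without each array other than those of young WT, the 4 from 0 to 13. Where a young WT array was left out, the 2-fold IDs behind the 44 were chosen anew. Of the named IDs, 2 were called for this interaction in WT. In WT both the 394 and the named IDs were chosen on young arrays that the interaction uses again, which favours a smaller difference in old mice. The interaction, old minus young of hippocampus minus cortex, was -0.60 log2 for ENSMUSG00000053930 and 0.68 for ENSMUSG00000061086, a smaller region difference in old mice in each case. The call of the first was lost without each of 4 young WT arrays (adjusted p from 0.053 to 0.0721), and that of the second without old WT cortex replicate 3 (adjusted p = 0.059). The first was not read without single old WT arrays. In KO these values were -0.40 and 0.56, with the same signs and with adjusted p above the threshold.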

How the results depend on the processing

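The count of called IDs, 5595, ranged from 4492 to 6036 over 16 alternatives, and from 4520 to 5513 without each young WT array in turn. The lowest count, 4492, was of the 9552 IDs left by the filter at the 60th percentile. Without the filter, 5684 of 23879 IDs were called. The share called thus depended on the filter and was larger where more dim IDs were left out. The 394 calls of at least 2-fold ranged from 386 to 414 without each young WT array in turn. With the filter at the 60th percentile they were 291, or 3.05% of the 9552 IDs then tested. A test against 0.5 log2 (limma treat) in place of the 2-fold limit called 645 IDs, 309 higher in hippocampus and 336 in cortex. Hippocampus held 44.8% of calls, 49.1% after quantile normalization and 38.6% after median centring. The named IDs kept their direction and call in 12 alternatives each. Without the filter on dim IDs, 545 of the 9552 dim IDs were called (5.71%), of which 8 were 2-fold higher in hippocampus and 13 in cortex. The counts of the interactions with age were unstable. That in WT, 292, was 160 without the filter, 471 after quantile normalization and 519 without young KO hippocampus replicate 1. It ranged from 28 to 597 without each young WT array. Its count among the 2-fold IDs, 44, was 23 without the filter and ranged from 9 to 59 without each young WT array and from 4 to 65 without each of the other arrays. The count in KO, 26, ranged from 1 to 117 without each KO array. The interaction with genotype called 0 IDs in each of 11 alternatives. Same-numbered arrays of the regions had correlations of deviations of -0.0245, -0.17 and -0.251, and 0 of the 6 correlated best with its own number, so the numbers were not taken as pairs. With the replicate number as a block in the 6 young WT arrays, 4566 IDs were called, against 5233 in the same 6 arrays without the block. With the block in all 24 arrays, 5579 IDs were called, and the age interaction in WT called 231. Counts of gene lists were not run, because 0 IDs could be named. The cause of these shifts was not tested.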
